A study of Mus musculus with 10 samples.

Results

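The genes described here are the nuclear genes of the mitochondrial respiratory chain and ATP synthase, taken as all genes whose array symbol begins with *Nduf* (series a, b, c, s and v), *Sdh* (a to d), *Uqcr*, *Cox* (numbers 4 to 8) or *Atp5*. The rule took 85 of the 19937 genes that have a probe set annotated to a single symbol, and of a gene's probe sets the one with the highest mean over all 10 arrays stands for it. Of the 85, 79 encode subunits of complexes I to V, of which 72 are common subunits and 7 are tissue isoforms of complex IV, and the other 6 share the symbol pattern but encode assembly factors or relatives of subunits. Probe sets shared by several symbols were left out, which removed 6 probe sets of *Cox7c*, *Ndufb4* and *Ndufs5* with their near copies. RNA of *Sox10*-H2BVenus+ sacral neural crest progenitors (NCPs), labelled E13 and carrying the transgene C3Fe.Tg(Sox10-HIST2H2BE/Venus)ASout, was profiled on 3 mouse Gene 1.0 ST arrays (Affymetrix). The transgene drives a nuclear fluorescent protein from *Sox10* regulatory sequence, so the sort recovers cells by *Sox10* activity, and each sample pooled tissue of several fetuses. The control was total embryo RNA on 7 arrays, for which the labels give neither a stage nor a genotype. The question of the comparison is which genes differ between the sorted progenitors and the whole embryo.

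Complexes I and II feed electrons from NADH and succinate into the chain, complex III passes them to cytochrome c, and complex IV transfers them to oxygen. Complexes I, III and IV pump protons, and complex V, the ATP synthase, lets protons back through its membrane part (Fo) to drive the catalytic head (F1). Apart from complex II, each complex also holds subunits encoded in mitochondrial DNA, and in striated muscle several complex IV subunits are replaced by muscle isoforms.

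The values are log2 intensities after robust Multi-Array Average (RMA) normalization. On this scale the standard deviation (SD) over all probe sets was 0.97 to 1.13 on the NCP arrays and 1.78 to 1.91 on the total embryo arrays. A floor was measured from 1190 genes of olfactory and vomeronasal receptors, which are little expressed beyond the nose. Above the median of these receptor genes, the median of the 85 genes stood at 2.30 (NCP array 1), 1.24 (array 2) and 2.86 (array 3), where the total embryo arrays gave 6.01 to 6.73, so the 2 groups did not overlap in this distance. Whether NCP and total embryo RNA were amplified alike is not settled by the sources used here, which name different labelling kits. The part of this and of the narrower NCP range in the results below was not tested. The title numbers of the total embryo arrays name 2 RNA preparations on 7 title dates, and those of the NCP arrays name 3 preparations on 1 date that is shared with total embryo array 1 only. Of 8 measured neural crest and glial markers, 3 were higher in NCPs, 3 were lower and 2 did not pass the test. The shares of all genes were 34.8% higher and 31% lower. Higher were *Sox10* (log2 fold change 1.0 ± 0.18 (SE), adjusted p = 2.78e-04, and 0.0584 averaged per preparation), *Foxd3* (1.33) and *Cdh19* (2.30), and lower were *Erbb3* (-1.20), *Ednrb* (-1.35) and *Fabp7* (-4.39). With arrays centred on receptor genes 6 were lower and 0 higher, against 77.9% and 4.78% of all probe sets. Where a call was lost with arrays averaged per RNA preparation, the adjusted p of that fit is added to the value. The 15 striated muscle markers had a mean of 6.41 to 6.65 on the NCP arrays and of 9.74 to 10.19 on the total embryo arrays.

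Nearly all respiratory chain genes gave less signal in NCPs than in total embryo. At an adjusted p of 0.05 (limma), 75 of 85 were lower, 2 were higher and 8 did not pass, against 31% of all genes lower and 34.8% higher. For 62 genes each NCP array read lower than each total embryo array, for 2 genes higher, and for 21 the groups overlapped, where 24.6% of all genes lay below and 28% above. The median log2 fold change was -1.84, against 0.08 over all genes. With the arrays averaged per RNA preparation before the fit, 44 were lower and 1 higher, against 14.8% and 20.4% of all probe sets, and with total embryo array 1 alone as the control 11 were lower, against 2.45%. Of 43 genes that passed among the 53 named by rule, 18 no longer passed with arrays averaged per preparation (adjusted p of 0.0624 to 0.308). Neither of the 2 higher genes exceeded the 95th percentile of receptor genes on any array. In a comparison of sorted cells with a whole embryo, fewer cells of a type and less RNA per cell cannot be told apart.

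Genes of similar brightness fell to much the same extent. Among 963 other genes whose total embryo mean lay between the lower and upper quartiles of the respiratory chain genes (8.96 and 11.08), 90.7% were lower and 0.623% higher, and their median log2 fold change was -2.53. The 43 respiratory chain genes in the same range had a median of -2.39, and 41 of them (95.3%) were lower. For each gene, the median of the 200 other genes nearest in total embryo mean was subtracted from its log2 fold change, and the result is called the level-matched difference here. Its median over the 85 genes was 0.28, with 49 above 0, and it became -0.025 where the neighbours were matched on the mean over all 10 arrays. When the trend on level was removed from each array (level adjustment), 13 genes were lower and 18 higher, with a median of 0.12, against 8.69% and 8.24% of all genes. The other scalings of the arrays gave 38 lower and 4 higher under quantile normalization (20% and 22.6% of all probe sets), 23 lower and 13 higher under cyclic loess (16% and 16.9%), and 83 lower and 1 higher with arrays centred on receptor genes (77.9% and 4.78%). Since the median of all probe sets itself moved from 0.23 as deposited to 0.08, -0.01, -1.46 and -0.01 under quantile normalization, cyclic loess, receptor centring and level adjustment, the median of the respiratory chain genes relative to it was -2.07 as deposited and -1.03, -0.24, -2.07 and 0.13 under these scalings.

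**Figure D1:**
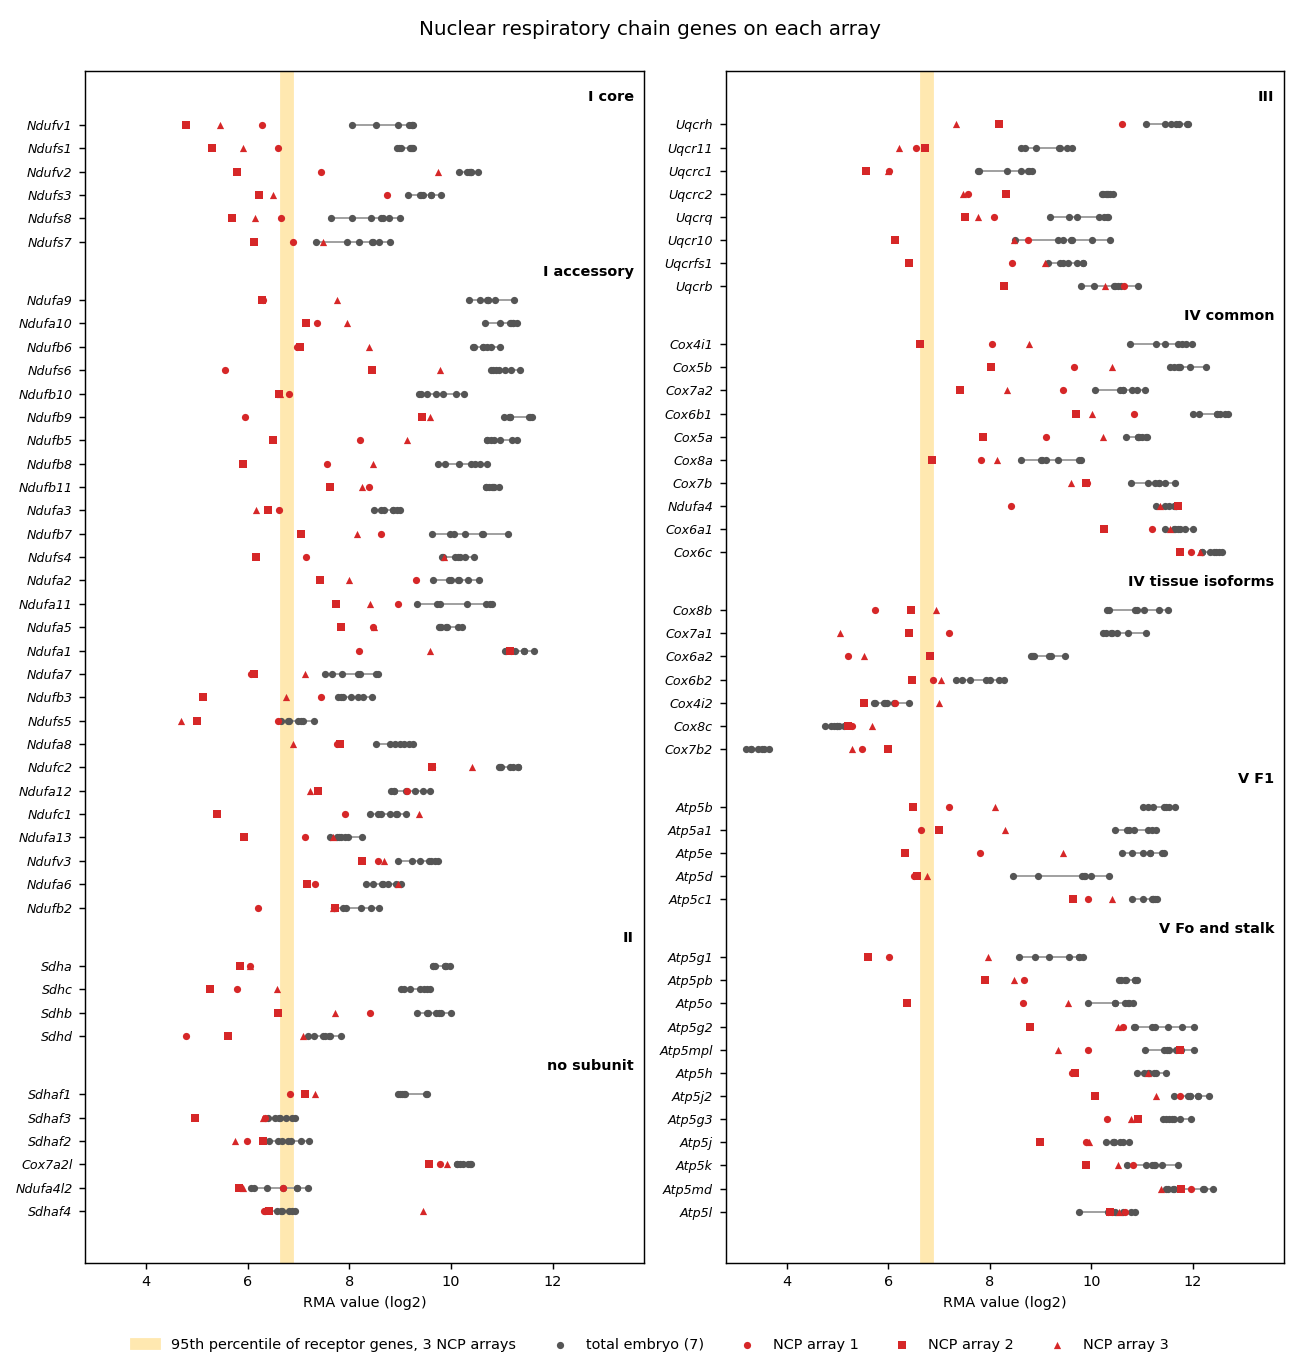
RMA values (log2, x axis) of the 85 genes, by complex and subunit class and ordered by fold change, on the 3 NCP arrays (red, 1 symbol per array) and the 7 total embryo arrays (grey, with a line over their range). The yellow band marks the 95th percentile of receptor genes on the 3 NCP arrays, and for 62 genes all red symbols lie to the left of all grey ones.

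**Figure D2:**
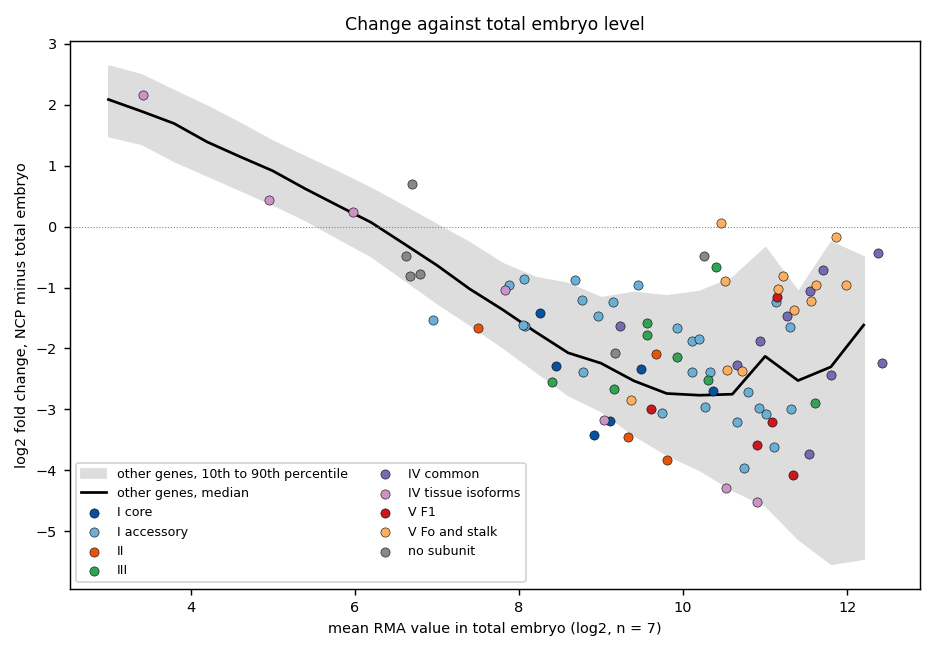
Log2 fold change of each of the 85 genes (y axis, NCP minus total embryo) against its mean in total embryo (x axis, log2), coloured by subunit class, with the median (line) and the 10th to 90th percentile (shading) of the other genes in bins of level. The other genes fall with level too, the Fo and stalk subunits lie above the line with 1 exception, and 4 of the 5 F1 subunits lie below it.

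By complex, the median log2 fold change was -2.29 for complex I (33 genes, 32 lower), -2.78 for complex II (4 genes, 4 lower), -2.33 for complex III (8 genes, 7 lower), -1.63 for complex IV (17 genes, 13 lower and 2 higher) and -1.22 for complex V (17 genes, 15 lower). Counts of lower genes, here and by complex below, are to be read against 31% of all genes. Among the 963 other genes of similar level the share was 90.7%. Counts without overlap are to be read against 24.6% of all genes lying below. The level-matched difference was near 0 for complex I (median 0.03), negative for complex II (-0.77), and positive for complexes III (0.44), IV (0.27) and V (1.2). The value of complex V was 1.02 to 1.35 over the 23 alternative settings, while leaving out 1 array brought complex I to 0.39 and complex III to 0.17 (without NCP array 2), and complex II to -0.45 and complex IV to 0.02 (without NCP array 1). With neighbours matched on all 10 arrays, complexes I to V were at -0.06, -1.14, 0.14, 0.01 and 0.35. The medians of complexes III and IV turned after level adjustment (0.06 and 0.25), and those of complexes IV and V under cyclic loess (0.02 and 0.71), where complexes I and II kept medians of -0.32 and -1.19. After level adjustment the medians of complexes I, II and V were -0.11, -0.93 and 1.42. Complex V held 9 of the 18 genes that were higher after level adjustment, and complex II held none. In the values as deposited, the medians of the F1 and of the Fo and stalk subunits of complex V stood apart by more than those of any 2 of the 5 complexes. This did not hold after level adjustment, where F1 and Fo and stalk were at -0.71 and 1.56. Nor did it hold under quantile normalization, with -2.32 and -0.13 beside -2.60 and -0.17 for complexes II and V.

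**Figure D3:**
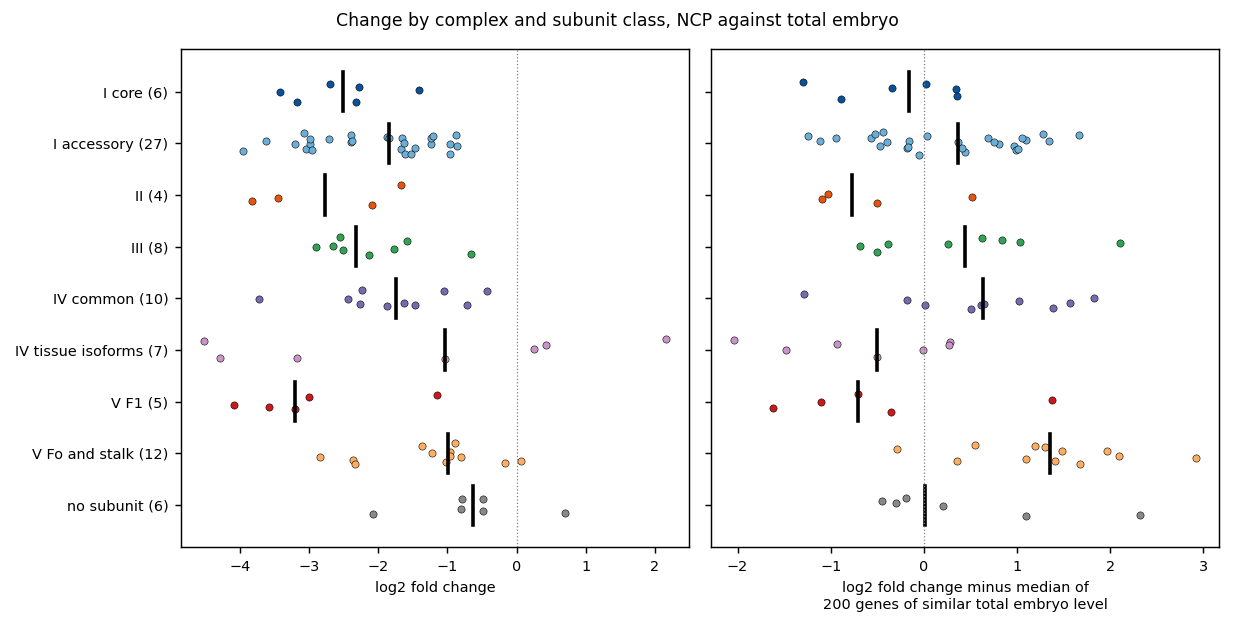
Log2 fold change (left) and level-matched difference (right) of the 85 genes by subunit class, with the number of genes in brackets. Points are genes and bars are medians, which run on the left from -3.21 for F1 to -0.64 for the genes that are no subunit, and on the right from -0.77 for complex II to 1.35 for Fo and stalk.

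The promoters of 4 genes are shown, chosen for their spread of responses. *Atp5b* had the largest decrease in complex V, and *Atp5l* had the only positive log2 fold change there by the brightest probe set. The 5 probe sets of *Atp5l* ran from -2.0 to 1.02, and their mean gave -0.57. *Uqcr11* was among the 2 largest decreases of the complex III genes taken by the symbol rule, and *Cox8b*, a muscle isoform, had the largest decrease of all 85 genes. Each sequence is the 250 bases before the transcription start, 5′ to 3′ on the strand of the gene, from RefSeq on GRCm38.p6, and capitals mark matches to either of 2 motif cores, GCATGCGC of NRF1 and CCGGAAG of the ETS family (which includes GABPA), or to their reverse complements.
*Atp5b*, chr10:128083057-128083306, plus strand: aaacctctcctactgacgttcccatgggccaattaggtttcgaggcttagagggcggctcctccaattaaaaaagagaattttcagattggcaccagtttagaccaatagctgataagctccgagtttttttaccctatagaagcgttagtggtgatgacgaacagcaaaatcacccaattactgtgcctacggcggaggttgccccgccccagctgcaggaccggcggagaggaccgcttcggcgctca
*Atp5l*, chr9:44920743-44920992, minus strand: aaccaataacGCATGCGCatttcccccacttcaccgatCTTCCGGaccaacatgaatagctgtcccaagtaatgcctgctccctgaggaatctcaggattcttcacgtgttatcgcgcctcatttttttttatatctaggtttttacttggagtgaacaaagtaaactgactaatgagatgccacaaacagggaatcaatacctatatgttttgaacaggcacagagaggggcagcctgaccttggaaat
*Uqcr11*, chr10:80406822-80407071, minus strand: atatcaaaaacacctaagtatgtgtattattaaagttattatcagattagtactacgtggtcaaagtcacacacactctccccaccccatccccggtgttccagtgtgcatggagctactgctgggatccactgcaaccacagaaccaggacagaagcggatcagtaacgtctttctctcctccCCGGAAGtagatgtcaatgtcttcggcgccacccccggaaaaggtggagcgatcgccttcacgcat
*Cox8b*, chr7:140900447-140900696, minus strand: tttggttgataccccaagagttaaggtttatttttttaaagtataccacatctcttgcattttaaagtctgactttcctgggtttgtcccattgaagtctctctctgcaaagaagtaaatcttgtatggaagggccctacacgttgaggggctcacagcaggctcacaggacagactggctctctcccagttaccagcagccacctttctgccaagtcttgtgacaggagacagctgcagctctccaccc
The promoter of *Atp5l* held 1 match to each core in these letters and that of *Uqcr11* 1 to the ETS core (its NRF1 core match lies across or after the end of the letters shown), while those of *Atp5b* and *Cox8b* held neither. Promoters were found for 70 of the 85 genes, over a window of 300 bases that also takes in the first 50 transcribed bases. On both strands, 14.3% of these genes held the NRF1 core and 28.6% the ETS core, against 3.93% and 12.9% of all protein-coding genes in the same window. Among Fo and stalk subunits 3 of 11 held the NRF1 core and 5 of 11 the ETS core, among F1 subunits 0 and 1 of 4, and among complex IV tissue isoforms none of 4 held either. A match describes these letters and is not a binding site, and no match says only that the letters are not in this window.

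Complex I, the NADH dehydrogenase, had 33 measured nuclear subunits under the symbol rule, 6 of the core that carries the flavin and most iron-sulfur clusters and 27 accessory. All 6 core subunits were lower, with log2 fold changes from -3.42 to -1.42, and 26 of 27 accessory subunits were lower, from -3.96 to -0.87. The exception, *Ndufc1*, read 7.91, 5.39 and 9.37 on NCP arrays 1, 2 and 3 against 8.41 to 9.11 (median 8.81) on the total embryo arrays (log2 fold change -1.21 ± 0.58 (SE), adjusted p = 0.0809), with NCP arrays 1 and 2 below and array 3 above the total embryo range. The core genes' median was -2.52 and the accessory genes' -1.84, with accessory minus core from 0.35 to 0.87 over 23 alternative settings. By array this difference was 0.29, 1.06 and 0.84 on NCP arrays 1, 2 and 3 and -0.19 to 0.41 on the total embryo arrays, so the groups overlapped, and no test was made.

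*Ndufv1*, the subunit that binds NADH and FMN, read 6.27, 4.78 and 5.44 on NCP arrays 1, 2 and 3 against 8.04 to 9.25 (median 9.17) on the total embryo arrays (log2 fold change -3.42 ± 0.33 (SE), adjusted p = 1.80e-06). *Ndufs1*, which holds iron-sulfur clusters next to it, read 6.59, 5.30 and 5.90 in NCPs against 8.94 to 9.25 (median 9.19) in total embryo (log2 fold change -3.18 ± 0.23 (SE), adjusted p = 2.01e-07). Both were without overlap between the groups, and no NCP array exceeded the 95th percentile of receptor genes (6.65 to 6.88 on the NCP arrays) for either. After level adjustment both remained lower (-1.36 and -1.04). *Ndufs7* and *Ndufs8*, which carry iron-sulfur clusters near the quinone site, changed by -1.42 ± 0.33 and -2.29 ± 0.29 (SE), and *Ndufs7* did not pass with arrays averaged per preparation (adjusted p = 0.0613). No NCP array of *Ndufs8* exceeded the receptor percentile either.

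The largest decreases of complex I were in *Ndufa9*, an accessory subunit near the junction of the membrane and peripheral arms, and *Ndufa10*. *Ndufa9* read 6.31, 6.29 and 7.76 on NCP arrays 1, 2 and 3 against 10.35 to 11.24 (median 10.72) on the total embryo arrays and was lower by 15.5-fold (log2 fold change -3.96 ± 0.30 (SE), adjusted p = 2.66e-07). Only NCP array 3 of *Ndufa9* exceeded the 95th percentile of receptor genes, so its fold is limited by the floor. *Ndufa10* read 7.35, 7.14 and 7.96 in NCPs against 10.67 to 11.30 (median 11.19) in total embryo and was lower by 12.3-fold (log2 fold change -3.62 ± 0.20 (SE), adjusted p = 3.45e-08). For both genes every NCP array lay more than 2 log2 units below every total embryo array, and the level-matched differences were -1.24 and -1.11. The smallest decreases were in *Ndufb2* (log2 fold change -0.87 ± 0.32 (SE), adjusted p = 0.0288, and 0.225 averaged per preparation) and *Ndufa6*, a subunit of the LYR family (log2 fold change -0.87 ± 0.32 (SE), adjusted p = 0.0292, and 0.254 averaged per preparation), whose NCP arrays overlapped the total embryo range and whose directions turned under quantile normalization, cyclic loess and level adjustment.

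*Ndufa1* and *Ndufb9*, subunits of the membrane arm, had the highest total embryo means of complex I. *Ndufb9* read 5.95, 9.44 and 9.59 on NCP arrays 1, 2 and 3 against 11.04 to 11.59 (median 11.17) on the total embryo arrays (log2 fold change -2.99 ± 0.59 (SE), adjusted p = 6.45e-04, and 0.0624 averaged per preparation). *Ndufa1* read 8.19, 11.17 and 9.58 in NCPs against 11.07 to 11.63 (median 11.26) in total embryo (log2 fold change -1.65 ± 0.44 (SE), adjusted p = 0.00513, and 0.138 averaged per preparation), and it turned under cyclic loess and level adjustment (to 0.95 in the latter). In both genes NCP array 1 was the lowest, and for *Ndufa1* array 2 lay within the total embryo range. *Ndufs6*, a zinc-binding accessory subunit, showed the same layout, with 5.54 on NCP array 1 and 8.44 and 9.79 on arrays 2 and 3.

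Succinate dehydrogenase (complex II), which is also an enzyme of the citric acid cycle, was lower in each of its 4 subunits without overlap. *Sdha*, the flavoprotein that oxidizes succinate, read 6.04, 5.84 and 6.04 on NCP arrays 1, 2 and 3 against 9.65 to 9.97 (median 9.88) on the total embryo arrays. No NCP array exceeded the 95th percentile of receptor genes for *Sdha*, so its fold is given as a bound, against the higher of that percentile and its own value on each NCP array. It was lower by at least 8.22-fold (measured log2 fold change -3.83 ± 0.15 (SE), adjusted p = 2.39e-09), and its 3 NCP arrays lay within 0.20 of each other. *Sdhb*, the iron-sulfur subunit, read 8.41, 6.59 and 7.72 in NCPs against 9.32 to 10.01 (median 9.71) in total embryo (log2 fold change -2.10 ± 0.30 (SE), adjusted p = 5.68e-05) and turned to 0.21 after level adjustment.

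The membrane anchor *Sdhc* read 5.79, 5.26 and 6.57 on NCP arrays 1, 2 and 3 against 9.02 to 9.59 (median 9.39) on the total embryo arrays and was lower by at least 5.89-fold (measured log2 fold change -3.45 ± 0.25 (SE), adjusted p = 1.99e-07), a bound for the same reason. The other anchor, *Sdhd*, read 4.79, 5.62 and 7.09 in NCPs against 7.19 to 7.83 (median 7.52) in total embryo (log2 fold change -1.67 ± 0.36 (SE), adjusted p = 0.00123, and 0.0826 averaged per preparation), with NCP array 3 just below the total embryo range and array 1 the lowest. *Sdha* and *Sdhc* stayed lower after level adjustment (-1.50 and -1.24), and *Sdhb* and *Sdhd* did not pass there.

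Of 8 subunits of complex III, the cytochrome bc1 complex, taken by the symbol rule, 7 were lower and 6 did not overlap. Among the 963 other genes of similar level 90.7% were lower, and 24.6% of all genes lay below without overlap. Cytochrome c1 (*Cyc1*), a subunit outside the rule, changed by -3.21 ± 0.30 (SE). *Uqcrh*, the hinge protein that contacts cytochrome c1, read 10.60, 8.18 and 7.34 on NCP arrays 1, 2 and 3 against 11.08 to 11.90 (median 11.66) on the total embryo arrays (log2 fold change -2.90 ± 0.50 (SE), adjusted p = 2.25e-04). The NCP arrays of this gene spread over more than 3 log2 units, with array 1 nearest to the total embryo range. *Uqcr11* read 6.55, 6.72 and 6.22 in NCPs against 8.61 to 9.62 (median 9.37) in total embryo and was lower by at least 5.25-fold (measured log2 fold change -2.66 ± 0.24 (SE), adjusted p = 1.28e-06), with its 3 NCP arrays close to each other and none above the receptor floor.

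*Uqcrb*, which contributes to the quinone site, did not pass, with 10.65, 8.28 and 10.27 on NCP arrays 1, 2 and 3 against 9.79 to 10.91 (median 10.47) on the total embryo arrays (log2 fold change -0.66 ± 0.41 (SE), adjusted p = 0.171). Arrays 1 and 3 lay within the total embryo range and array 2 below it, and without NCP array 2 the change was 0.06. The gene turned under quantile normalization and cyclic loess too, and was higher after level adjustment (1.77). *Uqcrfs1*, the Rieske iron-sulfur protein, read 8.45, 6.40 and 9.08 in NCPs against 9.15 to 9.84 (median 9.54) in total embryo (log2 fold change -1.58 ± 0.42 (SE), adjusted p = 0.00526, and 0.135 averaged per preparation) and turned under cyclic loess and level adjustment (to 0.70 in the latter). The core proteins *Uqcrc1* and *Uqcrc2*, which face the matrix, were lower by at least 3.11-fold, with no NCP array above the receptor floor, and by 5.73-fold, with all 3 above it.

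Complex IV, cytochrome c oxidase, had 10 common subunits, of which 9 were lower. *Cox4i1*, the common form of subunit 4, through which ATP regulates the enzyme, read 8.04, 6.63 and 8.77 on NCP arrays 1, 2 and 3 against 10.76 to 11.98 (median 11.71) on the total embryo arrays. It was lower by 13.2-fold (log2 fold change -3.73 ± 0.38 (SE), adjusted p = 3.11e-06) and remained lower after level adjustment (-1.08). *Cox5b* read 9.65, 8.02 and 10.40 in NCPs against 11.55 to 12.26 (median 11.73) in total embryo (log2 fold change -2.44 ± 0.38 (SE), adjusted p = 9.10e-05). In both genes NCP array 2 was the lowest and array 3 the highest, and no array overlapped the total embryo range, although *Cox5b* turned to 0.25 after level adjustment.

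The smallest decreases of the common subunits were in *Cox6c* and *Cox6a1*. *Cox6c* read 11.96, 11.75 and 12.13 on NCP arrays 1, 2 and 3 against 12.18 to 12.57 (median 12.42) on the total embryo arrays (log2 fold change -0.43 ± 0.16 (SE), adjusted p = 0.0285, and 0.287 averaged per preparation), with the groups nearly touching. *Cox6a1*, the form of subunit 6a found in most tissues, read 11.20, 10.25 and 11.54 in NCPs against 11.45 to 12 (median 11.70) in total embryo (log2 fold change -0.72 ± 0.24 (SE), adjusted p = 0.0186, and 0.239 averaged per preparation), with NCP array 3 inside the total embryo range. Both turned under quantile normalization, cyclic loess and level adjustment, the latter to 2.35 and 1.96.

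*Cox6b1*, which joins the monomers of the dimer on the side facing cytochrome c, had with *Cox6c* the highest total embryo mean of complex IV. It read 10.83, 9.70 and 10.01 on NCP arrays 1, 2 and 3 against 12 to 12.68 (median 12.48) on the total embryo arrays and was lower by 4.72-fold (log2 fold change -2.24 ± 0.24 (SE), adjusted p = 4.56e-06) without overlap, but turned to 0.54 after level adjustment. *Ndufa4*, named for complex I and now counted with complex IV, did not pass (log2 fold change -1.06 ± 0.52 (SE), adjusted p = 0.0877), with NCP array 1 at 8.41 and arrays 2 and 3 at 11.70 and 11.36 beside a total embryo range of 11.27 to 11.67.

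Of the 7 tissue isoforms of complex IV, 4 were lower, 2 passed as higher and 1 did not pass. The 3 isoforms of heart and skeletal muscle were lower, 2 of them with the largest decreases of all 85 genes, and 2 isoforms of testis were at the floor in both groups. *Cox8b*, the muscle form of subunit 8, read 5.73, 6.45 and 6.94 on NCP arrays 1, 2 and 3 against 10.30 to 11.51 (median 10.90) on the total embryo arrays and was lower by 23-fold (log2 fold change -4.52 ± 0.30 (SE), adjusted p = 1.22e-07). *Cox7a1* read 7.2, 6.40 and 5.06 in NCPs against 10.23 to 11.08 (median 10.41) in total embryo and was lower by 19.6-fold (log2 fold change -4.30 ± 0.35 (SE), adjusted p = 5.30e-07). *Cox6a2* read 5.21, 6.83 and 5.53 in NCPs against 8.82 to 9.49 (median 8.87) in total embryo and was lower by at least 4.81-fold (measured log2 fold change -3.18 ± 0.30 (SE), adjusted p = 1.44e-06).

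All 3 muscle isoforms were without overlap. At most 1 NCP array of each exceeded the 95th percentile of receptor genes, while all 7 total embryo arrays did. The folds of all 3 are thus limited by the floor. After level adjustment *Cox8b* and *Cox7a1* stayed lower (-2.0 and -1.84), and *Cox6a2* was at -1.07 without passing. Of 15 striated muscle markers 14 were lower (median -3.31), and so were 8 of 8 liver (-5.47), 9 of 9 smooth muscle and mesenchyme (-2.46), 7 of 8 endothelium and immune (-1.30) and 4 of 6 epithelium markers (-1.64), against 31% of all genes. After level adjustment 9 striated muscle, 8 liver and 4 smooth muscle and mesenchyme markers were lower, against 8.69% of all genes. Of the epithelium markers 2 were lower there, and of the endothelium and immune markers 0. No NCP array exceeded the 95th percentile of receptor genes for 6 striated muscle, 4 liver and 2 smooth muscle and mesenchyme markers. The same held for 5 endothelium and immune and 4 epithelium markers. Of 6 erythroid markers 1 was lower and 3 higher, and of 7 neuron markers 2 were lower and 4 higher, against 34.8% of all genes higher. With arrays averaged per RNA preparation, lower and higher were 1 and 1 for erythroid and 1 and 0 for neuron markers. After level adjustment they were 1 and 1, and 0 and 2. For 3 erythroid markers and 1 neuron marker no NCP array exceeded the 95th percentile of receptor genes. The part of muscle or other cells of the total embryo in these differences was not tested.

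For the 3 subunits with a common and a muscle isoform, the muscle isoform had the larger decrease. The fall of *Cox6a2* exceeded that of *Cox6a1* by 2.46, that of *Cox7a1* exceeded that of *Cox7a2* by 2.03, and that of *Cox8b* exceeded that of *Cox8a* by 2.90 on the log2 scale. All 3 values are limited by the floor under the muscle isoforms. In each pair the difference between the isoforms did not overlap between the 3 NCP and the 7 total embryo arrays. This is a description without a test, since the pairs were chosen with results known and the total embryo arrays carry only 2 RNA preparations. After level adjustment the differences were 3.03, 2.05 and 2.56.

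*Cox6b2*, the testis form of subunit 6b, read 6.87, 6.46 and 7.03 on NCP arrays 1, 2 and 3 against 7.34 to 8.28 (median 7.92) on the total embryo arrays (log2 fold change -1.04 ± 0.23 (SE), adjusted p = 0.00164, and 0.0659 averaged per preparation) and turned under cyclic loess and level adjustment (to 0.29 in the latter). *Cox4i2*, the lung form of subunit 4, read 6.14, 5.52 and 7.01 in NCPs against 5.73 to 6.41 (median 5.94) in total embryo (log2 fold change 0.25 ± 0.27 (SE), adjusted p = 0.431), its NCP arrays lying below, inside and above the total embryo range, and it turned under receptor centring (-1.44). *Cox7b2* and *Cox8c*, both known from testis, passed as higher, and neither exceeded the 95th percentile of receptor genes on any of the 10 arrays. *Cox7b2* read 5.48, 5.99 and 5.29 on NCP arrays 1, 2 and 3 against 3.20 to 3.66 (median 3.44) on the total embryo arrays (adjusted p = 6.32e-07). *Cox8c* read 5.28, 5.21 and 5.68 in NCPs against 4.76 to 5.13 (median 4.98) in total embryo (adjusted p = 0.0288, and 0.308 averaged per preparation), and its direction turned under quantile normalization, cyclic loess, receptor centring and level adjustment. Both groups being at the floor, no fold is given for these 2 genes.

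**Figure D4:**
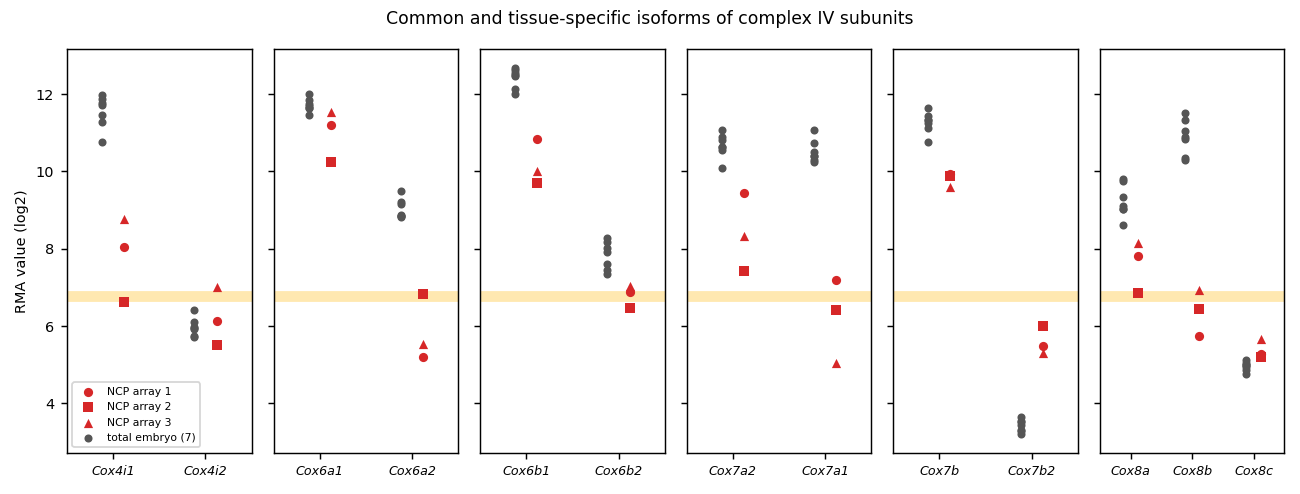
RMA values (log2, y axis) of common and tissue-specific isoforms of 6 complex IV subunits on the 7 total embryo arrays (grey) and the 3 NCP arrays (red, 1 symbol per array), with the 95th percentile of receptor genes on the NCP arrays as a yellow band. *Cox6a2*, *Cox7a1* and *Cox8b* drop to the band or close to it in NCPs, while *Cox6a1* stays near its total embryo range.

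The medians of complex V differed between its 2 parts, where the central stalk is counted in F1 and the peripheral stalk with Fo. The ranges of the 2 classes overlapped, with *Atp5c1* of F1 at -1.15. Of Fo and stalk, *Atp5g1*, *Atp5pb* and *Atp5o* were at -2.84, -2.37 and -2.35. All 5 F1 subunits were lower without overlap, with a median log2 fold change of -3.21 and a median level-matched difference of -0.70. Of 12 Fo and stalk subunits 10 were lower and 6 did not overlap, but 7 were lower with RNA number as a random block and 2 with arrays averaged per RNA preparation, where all 5 F1 subunits stayed lower. The Fo and stalk subunits had a median of -0.99 and a level-matched difference of 1.35, positive in 11 of 12. The F1 median was negative under every scaling (-0.71 after level adjustment), while the Fo and stalk median turned to 0.92 under cyclic loess and 1.56 after level adjustment. On NCP arrays 1, 2 and 3 the median deviation from the total embryo mean was -3.27, -3.90 and -2.60 for F1 and -1.02, -1.50 and -0.77 for Fo and stalk, so each NCP array showed the same order. Fo and stalk minus F1 was 2.25, 2.40 and 1.83 on these arrays and -0.24 to 0.31 on the total embryo arrays. The order of the medians held under all 23 alternative settings, with the difference between 1.98 and 2.93, and, with neighbours matched on all 10 arrays, the level-matched medians were -1.0 and 0.54. No test was made of this split, since the classes were chosen with results of these data known.

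**Figure D5:**
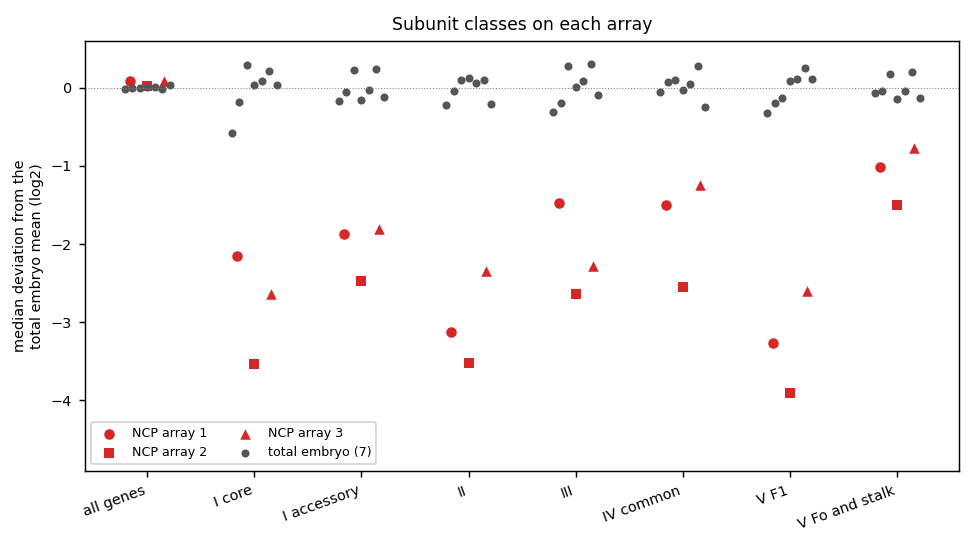
Median deviation from the total embryo mean (log2, y axis) over all genes and over the genes of 7 subunit classes (x axis), on each of the 3 NCP arrays (red, 1 symbol per array) and 7 total embryo arrays (grey). All genes sit near 0 on every array, and F1 lies below Fo and stalk on each NCP array.

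*Atp5b*, the catalytic beta subunit of F1, read 7.21, 6.48 and 8.09 on NCP arrays 1, 2 and 3 against 11.02 to 11.65 (median 11.42) on the total embryo arrays. It was lower by 17-fold (log2 fold change -4.08 ± 0.28 (SE), adjusted p = 1.41e-07). *Atp5a1*, the alpha subunit that alternates with it in the head, read 6.64, 7.0 and 8.30 in NCPs against 10.46 to 11.27 (median 10.83) in total embryo and was lower by 12-fold (log2 fold change -3.59 ± 0.31 (SE), adjusted p = 7.46e-07). For both genes the highest NCP array lay more than 2 log2 units below the lowest total embryo array, and both stayed lower after level adjustment (-1.48 and -1.06). The central stalk subunits epsilon (*Atp5e*) and delta (*Atp5d*) were lower by 9.28-fold and 8-fold, with adjusted p of 5.78e-05 and 7.60e-06, and did not pass after level adjustment. Only 1 NCP array of *Atp5d* exceeded the receptor floor, which limits its fold. Gamma (*Atp5c1*), the rotating shaft, was the exception among F1, with 9.93, 9.63 and 10.41 on NCP arrays 1, 2 and 3 against 10.79 to 11.29 (median 11.21) on the total embryo arrays (log2 fold change -1.15 ± 0.19 (SE), adjusted p = 1.55e-04), and was higher after level adjustment (1.42).

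*Atp5l*, subunit g of Fo, did not pass the test. It read 10.66, 10.37 and 10.55 on NCP arrays 1, 2 and 3 against 9.76 to 10.85 (median 10.46) on the total embryo arrays (log2 fold change 0.07 ± 0.22 (SE), adjusted p = 0.8), with all NCP arrays inside the total embryo range. Its 5 probe sets disagreed, with log2 fold changes from -2.0 to 1.02, 2 of them lower and 1 higher, and their mean gave -0.57, so the value of this gene rests on the choice of probe set. It also turned under receptor centring (-1.62). *Atp5md*, a small Fo subunit, read 11.96, 11.76 and 11.37 in NCPs against 11.47 to 12.40 (median 11.62) in total embryo (log2 fold change -0.16 ± 0.24 (SE), adjusted p = 0.57), with NCP array 3 just below the total embryo range and the others inside it. Its 3 probe sets ran from -1.81 to 0.35, and it turned under quantile normalization, cyclic loess and level adjustment.

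*Atp5j2*, subunit f, had with *Atp5md* the highest total embryo mean of complex V and read 11.74, 10.07 and 11.27 on NCP arrays 1, 2 and 3 against 11.62 to 12.31 (median 11.95) on the total embryo arrays (log2 fold change -0.96 ± 0.29 (SE), adjusted p = 0.0102, and 0.186 averaged per preparation). NCP array 1 lay within the total embryo range and array 2 was the lowest, and the gene turned under cyclic loess and level adjustment (to 1.76 in the latter). The c ring, which turns as protons pass, is encoded by 3 genes with the same mature protein, and these changed by -2.84 ± 0.44 (*Atp5g1*), -1.37 ± 0.38 (*Atp5g2*) and -0.96 ± 0.18 (*Atp5g3*, SE). All 3 were lower without overlap, and *Atp5g2* and *Atp5g3* were higher after level adjustment. The other probe set of *Atp5g1* was at -0.16 and did not pass, and the 3 of *Atp5g2* ran from -2.83 to 0.01, so these values rest on the probe set taken. The peripheral stalk subunits *Atp5o* (OSCP) and *Atp5pb* (subunit b) changed by -2.35 ± 0.49 and -2.37 ± 0.19, while *Atp5h* (subunit d) and *Atp5j* (F6) of the same stalk changed by -1.03 ± 0.28 and -0.89 ± 0.21. With arrays averaged per preparation *Atp5g2*, *Atp5g3*, *Atp5o*, *Atp5h* and *Atp5j* did not pass (adjusted p = 0.126, 0.0599, 0.0729, 0.15 and 0.112).

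The 6 genes that match the symbol rule without encoding a subunit had a median of -0.64. *Sdhaf1*, an assembly factor that helps the iron-sulfur subunit of complex II mature, read 6.83, 7.12 and 7.33 on NCP arrays 1, 2 and 3 against 8.95 to 9.52 (median 9.08) on the total embryo arrays and was lower by 4.22-fold (log2 fold change -2.08 ± 0.19 (SE), adjusted p = 1.09e-06), but turned to 0.08 after level adjustment. *Sdhaf2*, needed to attach flavin to *Sdha*, and *Sdhaf3* were lower (-0.78 ± 0.20 and -0.80 ± 0.27, adjusted p = 0.00366 and 0.0179), with no NCP array above the receptor floor, and neither passed with arrays averaged per preparation (adjusted p = 0.0911 and 0.219). *Sdhaf4* read 6.31, 6.42 and 9.45 in NCPs against 6.33 to 6.93 (median 6.67) in total embryo (log2 fold change 0.70 ± 0.52 (SE), adjusted p = 0.244), with NCP array 3 far above the total embryo range and arrays 1 and 2 at its lower end, and without NCP array 3 it changed by -0.33. *Cox7a2l*, which takes part in joining complexes III and IV into supercomplexes, was lower (log2 fold change -0.49 ± 0.15 (SE), adjusted p = 0.0122, and 0.233 averaged per preparation) and turned under quantile normalization, cyclic loess and level adjustment, and *Ndufa4l2*, a hypoxia-induced relative of *Ndufa4*, did not pass (log2 fold change -0.48 ± 0.28 (SE), adjusted p = 0.149).

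The spread among arrays is not of one kind in the 2 groups, since the 3 NCP arrays are 3 RNA preparations and the 7 total embryo arrays repeat 2. The median SD over the 85 genes was 0.79 among NCP arrays and 0.25 among total embryo arrays, and for 26 genes the NCP arrays spanned more than 2 log2 units. Among the 963 other genes of similar level the median SD was 0.67 and 0.23, and 244 spanned more than 2 units. NCP array 2 was the lowest of the 3 for 56 genes, array 1 for 16 and array 3 for 13. Without array 2, 71 genes were lower and 3 higher, against 26.3% and 39.4% of all probe sets, with a median of -1.60. Over the 72 common subunits, the deviations of pairs of NCP arrays from total embryo correlated with Pearson's r of 0.44 to 0.49, as a description, since the pairs share the total embryo mean and genes are not independent.

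Among 17 genes with several probe sets, 5 (*Ndufc1*, *Atp5g2*, *Atp5h*, *Atp5md* and *Atp5l*) had probe sets of opposite sign, 4 of them in Fo and stalk. With the mean of all probe sets in place of the brightest, 76 genes were lower and 3 higher (27.4% and 39.9% of all probe sets), the median was -1.65, and the Fo and stalk subunits had a level-matched difference of 1.63 beside -0.46 for F1. Whether near copies of these genes in the genome contribute to their probe sets was not tested.

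Other genes of the same metabolism are given as lists, to be read against 31% of all genes lower. The share of 90.7% belongs to the 963 genes with total embryo means of 8.96 to 11.08. The lists of assembly factors and of regulators were dimmer, with list means of 6.96 to 7.45 on the total embryo arrays. That of glycolytic enzymes had list means of 8.21 to 8.88. For these lists the level-matched difference is the nearer comparison. Of 7 measured partners outside the symbol rule 6 were lower, with a median of -2.47, and 1 was lower and 3 higher after level adjustment. Among them *Cyc1* is a subunit of complex III and *Ndufab1* of complex I, so the counts by complex leave these genes out. *Etfb*, a subunit of the flavoprotein that brings electrons from fatty acid oxidation, read 6.82, 5.55 and 6.24 on NCP arrays 1, 2 and 3 against 10.49 to 11.28 (median 10.93) on the total embryo arrays (log2 fold change -4.70 ± 0.27 (SE), adjusted p = 3.51e-08), and cytochrome c1 (*Cyc1*) and cytochrome c (*Cycs*) changed by -3.21 ± 0.30 and -1.15 ± 0.24 (*Cycs* adjusted p = 0.0501 averaged per preparation). *Atpif1*, the inhibitor of ATP hydrolysis by the synthase, did not pass (log2 fold change -0.27 ± 0.16 (SE), adjusted p = 0.138), and its 3 NCP arrays lay from 11.14 to 11.59 beside 11.49 to 11.85, the direction turning under quantile normalization, cyclic loess and level adjustment. All 16 measured genes of the citric acid cycle and pyruvate dehydrogenase were lower (median -2.46), but 9 were lower and 3 higher under cyclic loess and 4 and 3 after level adjustment. They ran from *Dld*, a shared dehydrogenase subunit (log2 fold change -3.71 ± 0.25 (SE), adjusted p = 1.14e-07), to *Dlst* (log2 fold change -0.88 ± 0.24 (SE), adjusted p = 0.006, and 0.163 averaged per preparation), which turned under quantile normalization, cyclic loess and level adjustment. All 6 carriers and porins of the list were lower (median -2.33), but 1 was lower under cyclic loess and 0 after level adjustment, and their level-matched difference was 0.08 beside -0.35 for the citric acid cycle list. They ran from the porin *Vdac2* (log2 fold change -3.11 ± 0.34 (SE), adjusted p = 4.69e-06) to the adenine nucleotide carrier *Slc25a4* (log2 fold change -1.54 ± 0.25 (SE), adjusted p = 1.40e-04), which turned under cyclic loess and level adjustment.

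Of 13 complex I assembly factors 7 were lower (median -0.75, and 0 lower and 1 higher after level adjustment), from *Ndufaf2* (log2 fold change -2.37 ± 0.31 (SE), adjusted p = 2.68e-05) to *Ndufaf6* (log2 fold change 0.51 ± 0.25 (SE), adjusted p = 0.0892). Of 24 factors of complexes III to V 11 were lower and 2 higher (median -0.52, and 0.18 and 0.16 under cyclic loess and level adjustment), from *Lrpprc*, which stabilizes mitochondrial mRNAs (log2 fold change -2.27 ± 0.22 (SE), adjusted p = 2.16e-06), to *Lyrm7*, a chaperone of the Rieske protein (log2 fold change 1.22 ± 0.24 (SE), adjusted p = 6.95e-04, and 0.066 averaged per preparation), which turned under receptor centring. The median level-matched differences of these 2 lists were -0.05 and 0.20.

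Of 12 regulators of mitochondrial genes 7 were lower, 2 higher and 3 did not pass, and 1 was lower and 2 higher after level adjustment. *Gabpa*, the ETS factor that acts on many respiratory genes, was lower without overlap, with 7.08, 6.39 and 6.73 on NCP arrays 1, 2 and 3 against 8.40 to 8.95 (median 8.80) on the total embryo arrays (log2 fold change -2.02 ± 0.18 (SE), adjusted p = 1.19e-06), and was at -0.05 after level adjustment (adjusted p = 0.879). *Nrf1* changed by -1.0 ± 0.18, *Tfam*, which packages mitochondrial DNA, by -1.45 ± 0.23, and the coactivator *Ppargc1a* by -1.91 ± 0.14, all lower. After level adjustment *Nrf1* stayed lower (-0.76, adjusted p = 0.012), while *Tfam* and *Ppargc1a* were at -0.31 and -0.18 (adjusted p = 0.35 and 0.454). With arrays averaged per preparation *Nrf1* did not pass (adjusted p = 0.0591). No NCP array exceeded the receptor floor for 8 of the 12 regulators, among them *Nrf1*, *Tfam* and *Ppargc1a*. *Ppargc1b*, a relative of *Ppargc1a*, was higher, with 6.92, 7.96 and 7.0 in NCPs against 6.30 to 6.96 (median 6.54) in total embryo (log2 fold change 0.70 ± 0.24 (SE), adjusted p = 0.0202, and 0.202 averaged per preparation), the lowest NCP array being below the highest total embryo array, and it turned under receptor centring. The level-matched difference of the list was -0.06.

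Of 13 glycolytic enzymes 11 were lower (median -1.59, level-matched difference -0.25), but 4 under quantile normalization, 2 under cyclic loess, and 1, with 1 higher, after level adjustment. *Aldoa*, aldolase A, read 6.28, 6.89 and 6.86 on NCP arrays 1, 2 and 3 against 9.70 to 11.10 (median 10.74) on the total embryo arrays (log2 fold change -3.96 ± 0.30 (SE), adjusted p = 3.29e-07), and hexokinase 2 (*Hk2*) did not pass (log2 fold change -0.31 ± 0.22 (SE), adjusted p = 0.217). Only 2 of the 26 listed mitochondrially encoded genes had a probe set of their own. *ND3*, of complex I, read 12.35, 12.28 and 12.39 in NCPs against 12.52 to 13.32 (median 12.89) in total embryo (log2 fold change -0.55 ± 0.20 (SE), adjusted p = 0.0262, and 0.168 averaged per preparation), and *COX2*, of complex IV, read 11.84, 11.66 and 11.89 in NCPs against 11.78 to 13.11 (median 12.17) in total embryo (log2 fold change -0.49 ± 0.26 (SE), adjusted p = 0.118). Both turned under quantile normalization, cyclic loess and level adjustment, and their level-matched differences were 1.71 and 1.77.

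For comparison, 36 of 53 cytosolic ribosomal protein genes were lower and 3 higher (median -0.96, level-matched difference 1.26), 33 of 39 proteasome subunit genes were lower and 1 higher (-2.04 and 0.00), and 50 of 77 mitochondrial ribosomal protein genes were lower and 1 higher (-0.92 and 0.23). Of all genes 31% were lower and 34.8% higher. The median total embryo levels of the families were 11.85, 9.28 and 7.60, so their counts are not directly comparable. The medians of both ribosomal families turned under cyclic loess (0.83 and 0.06) and level adjustment (1.65 and 0.11), and that of the proteasome did not. Complex V, at 1.2, had a level-matched difference close to that of the cytosolic ribosome, and complex I, at 0.03, one close to that of the proteasome. These are descriptions of the lists, without a test between them.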

How the data were processed

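Affymetrix mouse Gene 1.0 ST arrays carried RNA of 3 NCP and 7 total embryo samples. The methods give NuGEN WT-PICO amplification of 3 ng and the labels a GeneChip One-Cycle kit, so whether both groups were amplified alike is not known. The deposited log2 values were made by the authors with RMA in Affymetrix Expression Console 1.1, and which arrays were normalized together is not given in the sources used here. Groups came from the sample labels, and replicate numbers are arbitrary tags. Of 34760 probe sets, 6568 controls were left out and 28192 tested (21640 with 1 symbol, 1321 with several, 5231 with none) with limma 3.58.1 in R 4.3.3, Benjamini-Hochberg over all of them and an adjusted p of 0.05. p-values measure the spread between these samples, of which 7 total embryo arrays carry 2 RNA preparations. One title number written without a 0 was taken as the same preparation. The fit was tested on simulated data.

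The genes, subunit classes, lists and tests were chosen with earlier results of these data known. *Ndufa4* was placed in complex IV. Named with values are all of complex II, the complex IV isoforms, genes that passed as higher or encode no subunit, in complexes I, III, IV and V the 2 highest in total embryo, the 2 largest and the 2 smallest decreases, and the extremes of each list. The others (*Ndufc1*, core subunits of complexes I and III, *Ndufs6*, *Ndufa4*, the remaining complex V subunits, *Cyc1*, *Cycs*, *Nrf1*, *Tfam*, *Ppargc1a*, and the neural crest and glial markers) were chosen after their values were seen. For level adjustment, each array's deviation from the total embryo mean was smoothed over that mean by lowess (span 0.3), and the smooth was taken off. The receptor floor is the 95th percentile of receptor genes on each array, and a fold is a bound where no NCP array exceeded it. The number of arrays limits the precision. Figures were drawn in Python 3.11.15.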

Additional observations from a re-analysis of the deposited data

Results flagged for a closer look

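For *Vdac2*, a porin of the outer mitochondrial membrane, total embryo array 7 read 11.36, and the nearest of the other total embryo arrays 10.95. The gap was 0.72 of the whole range of the 7 arrays. This was 1 of 53 named genes examined, and chance marks about 1 in 20 groups. The 3 NCP arrays read from 6.59 to 8.54.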

How the results depend on the processing

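Of 23 alternative settings, 5 changed the count of lower genes (75) by over 1.5 times. Lower and higher were 11 and 0 with the control array of the same title date only, 44 and 1 with arrays averaged per RNA preparation, 38 and 4 under quantile normalization, 23 and 13 under cyclic loess, and 13 and 18 after level adjustment. The count of higher genes, 2 as reported, was 1 with control arrays of either title series (2090 or 836), RNA number as a random block, array weights or receptor centring, and 0 with the filter on dim probe sets, which removed both genes. The median log2 fold change, -1.84 as reported, was -0.95 (quantile normalization), -0.25 (cyclic loess), -3.53 (receptor centring) and 0.12 (level adjustment), and the level-matched difference, 0.28, was 0.47 under quantile normalization and -0.025 when matched on all 10 arrays. Leaving out 1 array gave 71 to 75 lower, 1 to 3 higher, medians of -2.12 to -1.60 and level-matched differences of 0.20 to 0.32. Why these values moved was not tested.

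Named genes turned as follows, in log2 fold change. Quantile normalization gave *Atp5md* 0.48, *Atpif1* 0.45, *COX2* 0.13, *Cox6a1* 0.15, *Cox6c* 0.11, *Cox7a2l* 0.80, *Cox8c* -0.47, *Dlst* 0.25, *ND3* 0.025, *Ndufa6* 0.26, *Ndufb2* 0.076 and *Uqcrb* 0.64. Cyclic loess gave *Atp5j2* 0.91, *Atp5md* 1.69, *Atpif1* 1.61, *COX2* 1.30, *Cox6a1* 1.18, *Cox6b2* 0.32, *Cox6c* 1.34, *Cox7a2l* 1.52, *Cox8c* -0.59, *Dlst* 1.02, *ND3* 1.12, *Ndufa1* 0.31, *Ndufa6* 1.13, *Ndufb2* 0.76, *Slc25a4* 0.40, *Uqcrb* 1.34 and *Uqcrfs1* 0.51. Receptor centring gave *Atp5l* -1.62, *Cox4i2* -1.44, *Cox8c* -1.26, *Lyrm7* -0.47, *Ndufaf6* -1.18, *Ppargc1b* -0.99 and *Sdhaf4* -0.99. Level adjustment gave *Atp5j2* 1.76, *Atp5md* 2.54, *Atpif1* 2.39, *COX2* 2.27, *Cox4i2* -0.0025, *Cox5b* 0.25, *Cox6a1* 1.96, *Cox6b1* 0.54, *Cox6b2* 0.29, *Cox6c* 2.35, *Cox7a2l* 1.92, *Cox8c* -0.50, *Dlst* 0.92, *ND3* 2.30, *Ndufa1* 0.95, *Ndufa6* 1.06, *Ndufb2* 0.65, *Sdhaf1* 0.082, *Sdhb* 0.21, *Slc25a4* 1.12, *Uqcrb* 1.77 and *Uqcrfs1* 0.70. *Atp5l* was -0.092 with the same-date control and -0.57 as the mean of its probe sets. Leaving out 1 array gave *Atp5l* -0.049 to 0.15, *Uqcrb* -1.12 to 0.062, *Cox4i2* -0.15 to 0.60 and *Sdhaf4* -0.33 to 1.24.

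No paired analysis was possible because the replicate numbers follow accession order and pair no samples. The NCP arrays share a title date with 1 total embryo array only, so group and date can be told apart through that array alone. Signal near the receptor floor limits what a decrease can show in 15 genes with no NCP array above it.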
